A study of Mus musculus with 8 samples.

Results

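The Schlafen genes are a mouse gene family, named after the German word for sleeping, whose first members were described as brakes on the growth of thymus and T cells. The short proteins of the family (Slfn1, Slfn2) hold a shared core, the intermediate ones (Slfn3, Slfn4) extend it, and the long ones (Slfn5, Slfn8, Slfn9) add a part that resembles helicases, enzymes that unwind nucleic acids. Many members are induced by type I interferon in mouse myeloid and lymphoid cells, Slfn2 protects tRNA from cleavage in mouse T cells, and Slfn4 is best known from activated mouse macrophages and from immature myeloid cells of the inflamed stomach. The 6 genes described here are Slfn1, Slfn2, Slfn4, Slfn5, Slfn8 and Slfn9, taken by symbol from the 23369 genes of the deposited count table. The set was chosen by the measured Slfn4 levels at ZT13 and ZT1, with the other Schlafen genes taken as its paralogs whatever their values. The Slfn4 difference between the time points, and those of the other members in the same comparison, are therefore given as a description and not as a test.

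The cells were neutrophils sorted as CD45+CD11b+Ly6G+ from digested spinal cords of C57BL/6N mice, harvested 13 hours after lights-on (ZT13, n = 4) or 1 hour after lights-on (ZT1, n = 4). All mice of both groups had experimental autoimmune encephalomyelitis (EAE), an immune attack on myelin induced as a model of multiple sclerosis, so that no healthy spinal cord is part of the comparison. Per the labels, cells were sorted per mouse and all libraries belong to 1 batch. No animal identifiers are given, so p-values measure the spread between these samples. RNA was amplified with SMART-Seq v4, which covers whole transcripts, and sequenced in single reads of 50 bases.

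Total counts ran from 46152067 to 58251904 in the ZT13 libraries and from 46932065 to 67873023 in the ZT1 libraries. Genes with 1 or more counts numbered 13945 to 15751 at ZT13 and 15760 to 17701 at ZT1, without overlap between the groups. The markers of the sorted cell type were abundant. The summed level of 12 neutrophil markers (such as S100a8, Ngp, Ltf and Csf3r) was 180270 to 229180 CPM (counts scaled to library size) at ZT13 and 137100 to 176700 CPM at ZT1, also without overlap. Markers of monocytes and macrophages were present too, led by Ly6c2, with summed levels of 2101 to 2970 CPM at ZT13 and 2121 to 2967 CPM at ZT1 over 12 genes, none of them at 0 in every library. The 14 T and NK cell markers in the table summed to 8.85 to 22.2 CPM at ZT13 and 9.35 to 20.2 CPM at ZT1, led by Nkg7. Neural and glial markers, led by Mbp, summed to 105 to 190 CPM at ZT13 and 104 to 154 CPM at ZT1. B cell markers, led by Ighm and with Ebf1 at 0 in every library, summed to 154 to 194 CPM at ZT13 and 136 to 249 CPM at ZT1. Dendritic cell markers, led by Flt3, summed to 6.36 to 14.8 CPM at ZT13 and 6.42 to 15.3 CPM at ZT1.

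The 6 genes lie in 1 cluster on mouse chromosome 11, from 82951349 to 83190216 on GRCm38, a span of 239 kb. Slfn5 (82951349 to 82964840), Slfn2 (83065112 to 83070678), Slfn1 (83116849 to 83122670) and Slfn4 (83175186 to 83190216) are on the + strand. Slfn9 (82978390 to 82991830) and Slfn8 (83002158 to 83020810) are on the - strand. Slfn3, the nearest relative of Slfn4, begins just behind Slfn4, at 83191330 on the + strand. In coding length the genes form the classes of the family: 1011 bases for Slfn1 and 1134 for Slfn2, 1806 for Slfn4 and 1920 for Slfn3, and 2652 for Slfn5 and 2730 each for Slfn8 and Slfn9. The coding sequences of Slfn8 and Slfn9 were 92.7% identical over 2730 aligned bases, and those of Slfn4 and Slfn3 94.2% identical over 1678. Slfn4 was 77.9% identical to Slfn2 and 75.7% to Slfn1, while its identity to the 3 long genes was 65.9% to 69.0% over shorter aligned stretches.

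The sequences just upstream of the start sites are shown with a run of bases common to Slfn4, Slfn1 and Slfn2 that the long members lack. The run was picked for being common to these 3, so it says nothing about their levels. The RefSeq promoter table (GRCm38.p6) held all 6 genes, and only the 250 bases before each start were used. The longest run common to the windows of Slfn4, Slfn1 and Slfn2 was ACTTCCTGGAG, in capitals below, at -73 to -63 in Slfn4 (chr11:83174936-83175185, + strand), -74 to -64 in Slfn1 (chr11:83116570-83116819, + strand) and -55 to -45 in Slfn2 (chr11:83064862-83065111, + strand). It was looked for after the windows had been seen.
Slfn4: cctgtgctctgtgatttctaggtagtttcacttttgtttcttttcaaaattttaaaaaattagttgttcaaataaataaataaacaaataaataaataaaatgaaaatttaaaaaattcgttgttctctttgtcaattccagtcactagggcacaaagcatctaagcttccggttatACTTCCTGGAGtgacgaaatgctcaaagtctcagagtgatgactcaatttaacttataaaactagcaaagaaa
Slfn1: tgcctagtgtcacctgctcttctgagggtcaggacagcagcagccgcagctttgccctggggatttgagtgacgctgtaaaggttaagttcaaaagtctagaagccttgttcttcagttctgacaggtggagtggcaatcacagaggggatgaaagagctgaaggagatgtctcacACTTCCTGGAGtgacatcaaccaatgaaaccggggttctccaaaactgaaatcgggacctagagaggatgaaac
Slfn2: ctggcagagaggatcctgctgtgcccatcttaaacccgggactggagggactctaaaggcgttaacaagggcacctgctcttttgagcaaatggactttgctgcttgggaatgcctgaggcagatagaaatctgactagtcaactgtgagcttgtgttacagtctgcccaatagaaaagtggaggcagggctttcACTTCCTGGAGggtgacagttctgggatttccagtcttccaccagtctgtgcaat

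On either strand the run of 11 bases occurred in 20 of 32851 promoter windows of the same length (0.0609%), and its first 9 bases, ACTTCCTGG, in 230 windows (0.700%), those of Slfn1, Slfn2, Slfn3 and Slfn4 among them. Its other strand holds the letters GGAA, known as the core bound by ETS factors such as PU.1. The run is a description of these windows, since the relatives of a family can share letters without sharing a binding site. Slfn3, which holds its first 9 bases, was low in these libraries (3.46 ± 0.576 CPM at ZT13 and 3.16 ± 0.593 CPM at ZT1). The Slfn4 window stood apart from the others in base composition, with 29.6% G and C against 48.0% to 51.6% in the windows of the other members.

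Of 10 motifs searched on both strands, the core of the interferon-stimulated response element (GAAA, any 2 bases, GAAA) had matches in the windows of the 3 long genes. The windows of Slfn4, Slfn1 and Slfn2 held none. The core was present in 2.98% of all windows. The stretches around it are shown with the match in capitals, for Slfn8 at -48 to -39 from 1 of its 2 starts and -136 to -127 from the other (chr11:83020824-83020883, - strand), for Slfn9 at -45 to -36 (chr11:82991841-82991900, - strand) and for Slfn5 at -155 to -146 (chr11:82951922-82951981, + strand). The windows of Slfn8 and Slfn9 were 88.4% identical over 224 aligned bases, so these 2 matches are not independent. The Slfn5 window lies inside the gene as placed above (82951349 to 82964840). Its match is therefore before the RefSeq start used, not before the gene.
Slfn8: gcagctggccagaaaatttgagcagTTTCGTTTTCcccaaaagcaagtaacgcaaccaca
Slfn9: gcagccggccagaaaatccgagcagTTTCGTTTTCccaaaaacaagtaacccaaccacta
Slfn5: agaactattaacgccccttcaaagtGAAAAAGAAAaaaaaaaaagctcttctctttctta

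Slfn4 alone among the 6 held TATAAA, at -19 to -14, a word found in 12.4% of all windows. The remaining motifs gave no match in the windows of the 6 genes. They were the paired IRF site (GAAA, any base, TGAAA, a subset of the interferon core, in 0.682% of all windows), the GAS letters TTCNNNGAA (7.02%), the E-box of the clock CACGTG (6.02%), the D-box TTATGTAA (0.819%), the RORE (AA, any base, TAGGTCA; 0.177%), the glucocorticoid element (AGAACA, any 3 bases, TGTTCT; 0.00913%), GAGGAAGT for PU.1 (2.44%) and an NF-kB site (GGGA, any base, TTTCC; 0.356%). These absences say only that the letters are not within 250 bases of the start.

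All 6 genes were detected in every library and passed the filter on low counts. Their summed level was 1401 to 2133 CPM at ZT13 and 1506 to 2299 CPM at ZT1. Levels of different genes were compared as CPM per kb of exon. On that scale Slfn2 came first in all 8 libraries, at 520 ± 111 CPM per kb at ZT13 and 461 ± 74.6 at ZT1 (mean ± SD, n = 4 each), which placed it 78 of 12310 genes with a length by its mean. Slfn1 was next at 255 ± 50.4 CPM per kb at ZT13 and 245 ± 44.5 at ZT1 (rank 165). Slfn4 followed at 73.9 ± 17.9 CPM per kb at ZT13 and 174 ± 80.3 at ZT1 (rank 333). Slfn2, Slfn1 and Slfn4 were thus far above the long members, of which Slfn5 reached 9.83 ± 3.56 CPM per kb at ZT13 and 10.1 ± 3.62 at ZT1, Slfn8 6.49 ± 1.26 at ZT13 and 8.20 ± 2.11 at ZT1, and Slfn9 1.79 ± 0.342 at ZT13 and 1.77 ± 0.642 at ZT1. The order Slfn2, Slfn1, Slfn4 held in 7 libraries, and in ZT1 replicate 2 Slfn4 (255 CPM per kb) lay above Slfn1 (246). Slfn5 and Slfn8 are neighbours in this order that did not differ beyond their spread, and ZT1 replicates 2 and 4 had Slfn8 above Slfn5. Slfn9 was lowest of the 6 in every library.

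**Figure D1:**
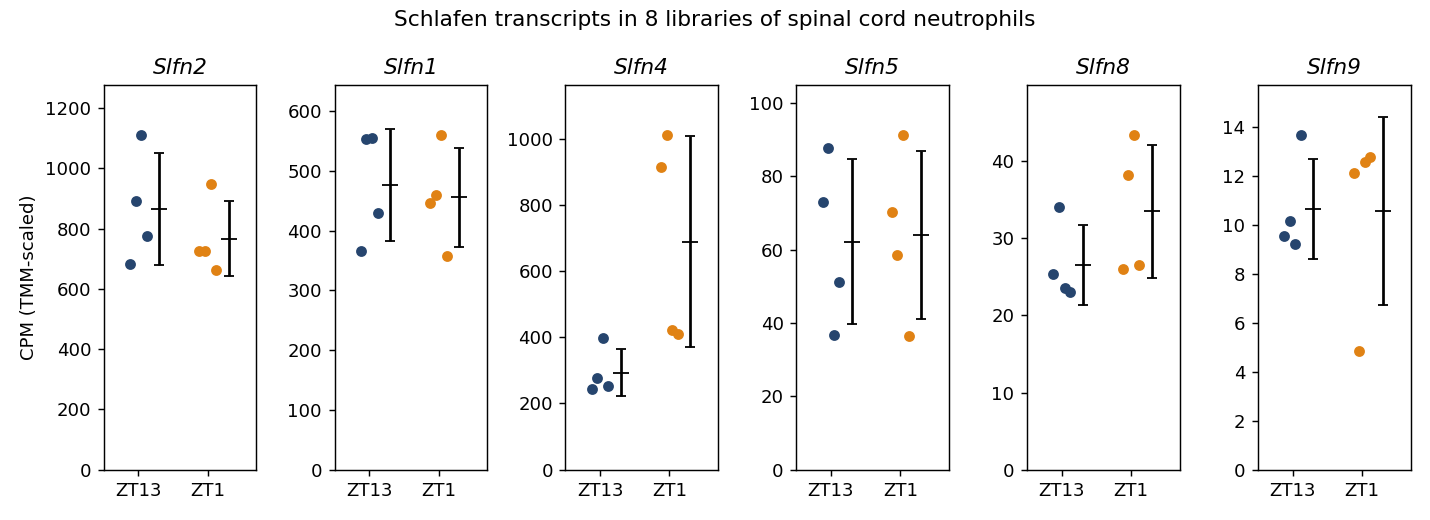
CPM scaled by TMM factors (y axis, from 0, a separate scale for each gene) of the 6 Schlafen genes in the 4 ZT13 and the 4 ZT1 libraries. Points are libraries in the order of replicates 1 to 4 and bars are the mean ± SD. The Slfn4 panel has its ZT13 libraries between 244 and 397 CPM and its ZT1 libraries between 409 and 1011 CPM, while the groups of the other 5 genes overlap.

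Slfn4 was the member with the widest range between libraries. It stood at 244, 278, 397 and 253 CPM in ZT13 replicates 1 to 4, against 914, 1011, 422 and 409 CPM in ZT1 replicates 1 to 4. Every ZT13 library was below every ZT1 library, but narrowly so: the lowest ZT1 library had 1.03 times the level of the highest ZT13 library, ZT13 replicate 3. ZT1 replicates 1 and 2 stood far above the other 6 libraries, and ZT1 replicates 3 and 4 lay close to the upper end of the ZT13 range. The means were 293 ± 70.9 CPM at ZT13 and 689 ± 318 CPM at ZT1, with raw counts of 11264 to 19764 per ZT13 library and 25136 to 56276 per ZT1 library, so that counting error was small beside the spread between samples. The log2 fold change of ZT13 over ZT1 was -1.23 ± 0.31 (SE; 95% interval from -1.93 to -0.54), or 2.35-fold lower at ZT13. Without ZT1 replicate 2 it was -0.99, and without ZT13 replicate 3 -1.42. In bulk RNA, fewer cells that express Slfn4 and less Slfn4 RNA per cell cannot be told apart.

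In the quasi-likelihood F-test of edgeR over all 12610 genes, 0 (0%) had an adjusted p under 0.05, Slfn4 and the other members included. At an unadjusted p under 0.05 stood 1160 genes (9.20%), of which 612 were lower (4.85%) and 548 higher (4.35%) at ZT13. DESeq2 called 118 of the 12610. The groups did not overlap, with ZT13 lower, for 378 genes (3.00%), 1 of the 6 members (Slfn4) among them, and with ZT13 higher for 336 genes (2.66%), 0 of the members among them. Since this contrast chose the members, nothing is read from those counts. As a description of size, Slfn4 had the most negative log2 fold change, and the greatest in absolute value, of the 1545 genes with a mean of 100 or more CPM. Its SE of 0.31 was above the median SE of 0.12 of those genes.

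**Figure D2:**
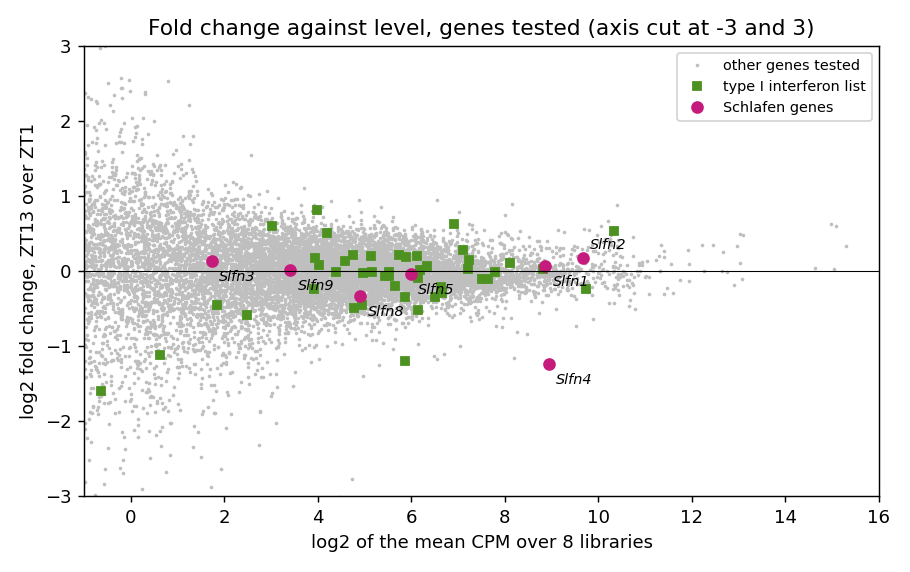
Log2 fold change of ZT13 over ZT1 (y axis, a few genes outside the drawn range left out) against the log2 of the mean CPM over 8 libraries (x axis) for the genes tested, with 7 Schlafen genes (Slfn3 included) and the 45 genes of the type I interferon list marked. Slfn4 lies at -1.23, below the band of genes of its level, and the other Schlafen genes lie between -0.34 and 0.17.

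The same libraries showed no such separation in the short paralogs, whose values overlapped between the time points. Slfn2 had 683, 892, 1111 and 775 CPM in ZT13 replicates 1 to 4, against 727, 727, 947 and 664 CPM in ZT1 replicates 1 to 4. Its log2 fold change was 0.17 ± 0.16 (SE; 95% interval from -0.19 to 0.54). Slfn1, first described as a gene that slows thymocyte growth, had 366, 553, 555 and 429 CPM in ZT13 replicates 1 to 4, against 447, 459, 560 and 357 CPM in ZT1 replicates 1 to 4. Its highest and lowest library were both ZT1 libraries, replicates 3 and 4, and the log2 fold change was 0.06 ± 0.17 (interval from -0.31 to 0.44).

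The long members were lower in level and wider in error. Slfn5, a nuclear protein whose human counterpart dampens interferon-driven transcription, had 72.9, 87.6, 36.9 and 51.3 CPM in ZT13 replicates 1 to 4, against 70.2, 58.4, 91.3 and 36.4 CPM in ZT1 replicates 1 to 4. The range within each time point was nearly as wide as the range over all libraries (2.38-fold at ZT13 and 2.51-fold at ZT1), and the log2 fold change was -0.04 ± 0.31 (interval from -0.74 to 0.66). Slfn8 had 25.4, 34.1, 23.5 and 23.1 CPM in ZT13 replicates 1 to 4, against 26.1, 38.2, 43.4 and 26.6 CPM in ZT1 replicates 1 to 4. ZT1 replicates 2 and 3 were above the other 6 libraries and the groups overlapped, with a log2 fold change of -0.34 ± 0.21 (interval from -0.81 to 0.13). Slfn9 had 9.56, 10.2, 9.23 and 13.7 CPM in ZT13 replicates 1 to 4, against 12.1, 4.83, 12.6 and 12.8 CPM in ZT1 replicates 1 to 4. ZT1 replicate 2 was the lowest library of all for Slfn9 and the highest for Slfn4, and the log2 fold change was 0.01 ± 0.31 (interval from -0.68 to 0.70). Of the 6 members, 3 had negative log2 fold changes, with a median of -0.02 over the 6, where 6597 of all 12610 genes were negative (52.3%) with a median of -0.02.

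Slfn3, outside the 6 but the closest relative of Slfn4, was low, at 136 to 256 counts per library. It had 3.41, 3.03, 3.12 and 4.29 CPM in ZT13 replicates 1 to 4 and 3.33, 3.50, 2.28 and 3.53 CPM in ZT1 replicates 1 to 4. Its log2 fold change was 0.13 ± 0.33. It did not follow the high Slfn4 values of ZT1 replicates 1 and 2.

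Counts of such relatives can be shared by the counting step. How it treated reads with several matches is not stated in the sources used here. Of all stretches of 50 bases (the read length) in the annotated Slfn4 transcripts, 11.3% also occurred in a transcript of another gene, 6.28% in Slfn3, 4.01% in the pseudogene Gm11427 and 1.72% in Slfn2. Gm11427 had 0.634 ± 0.274 CPM at ZT13 and 0.787 ± 0.521 CPM at ZT1. The share was 0.606% for Slfn1 and 4.27% for Slfn2, and no stretch was common to Slfn1 and Slfn2. It was 14.6% for Slfn8, shared with Slfn9 and the pseudogene Slfn10-ps, 11.9% for Slfn9, and 11.1% for Slfn5, most of it (7.38% of its stretches) with its antisense gene Slfn5os. Values of genes with such shared stretches, Slfn4, Slfn8 and Slfn9 among them, are uncertain by an amount that these shares do not give. The libraries do not mark the strand, so reads of Slfn5os cannot be told from Slfn5, nor those of the antisense gene Gm20234 (1.79 ± 0.592 CPM at ZT13 and 1.20 ± 0.607 CPM at ZT1) from Slfn2.

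Ratios of counts within a library do not depend on scaling between libraries. They reuse the Slfn4 counts by which the set was chosen, so they too are a description and not a test. Slfn4 had 0.358, 0.311, 0.358 and 0.326 counts per Slfn2 count in ZT13 replicates 1 to 4, against 1.26, 1.39, 0.445 and 0.616 in ZT1 replicates 1 to 4. The ZT13 libraries were tightly grouped in this ratio, and all 4 lay below the lowest ZT1 library. Per Slfn1 count the values were 0.667, 0.502, 0.715 and 0.590 at ZT13 and 2.05, 2.20, 0.753 and 1.14 at ZT1, again without overlap. Slfn4 made up 14.97% to 18.6% of the counts of the 6 genes at ZT13 and 20.3% to 44.0% at ZT1. The ratio of Slfn1 to Slfn2 counts, by comparison, was 0.50 to 0.621 at ZT13 and 0.538 to 0.632 at ZT1. Against Slfn5, Slfn8 and Slfn9 the Slfn4 ratio overlapped between the groups, for example at 8.13 to 16.9 Slfn4 counts per Slfn8 count at ZT13 and 9.72 to 35.1 at ZT1.

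**Figure D3:**
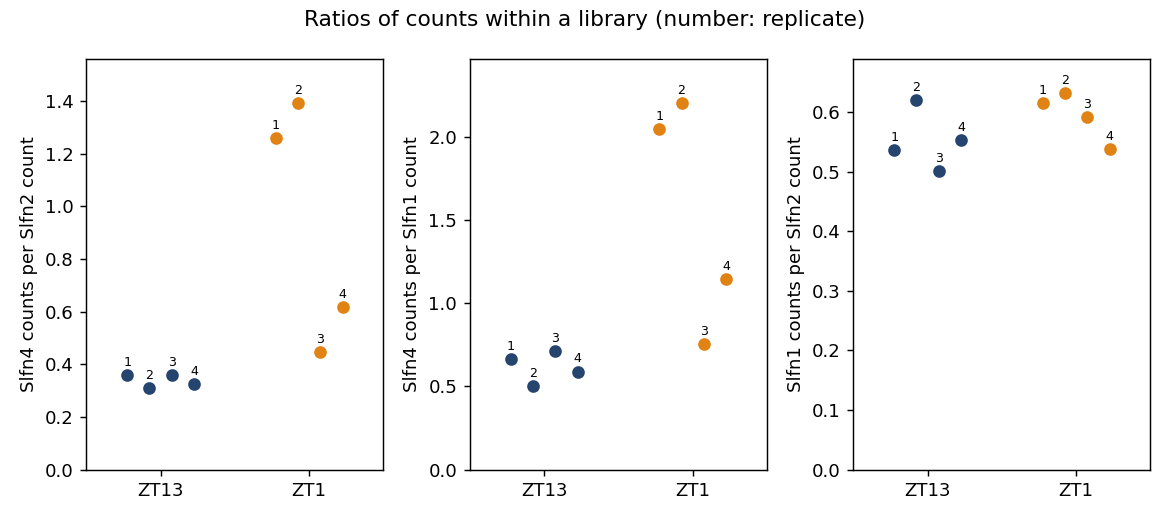
Ratio of raw counts of 2 Schlafen genes within each library (y axis, from 0; numbers beside the points are replicates) at ZT13 and ZT1. Slfn4 per Slfn2 count is 0.311 to 0.358 in the ZT13 libraries and 0.445 to 1.39 in the ZT1 libraries, while Slfn1 per Slfn2 count overlaps between the groups.

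Slfn1 and Slfn2 varied together across the libraries. The Pearson correlation of their log2 CPM over 8 libraries was 0.89 (exact permutation p = 0.00293, adjusted over the 15 pairs of members 0.0439) and the Spearman correlation 0.88 (exact permutation p = 0.00724, adjusted 0.109). It was 0.85 without the 2 libraries farthest from the Slfn1 median, and 0.91 for deviations from the mean of each time point. By the adjusted rank correlation the pair did not pass 0.05. Slfn4 did not share that pattern, with a Pearson correlation of 0.08 with Slfn1 and -0.17 with Slfn2, but since its libraries fall into 2 high ones and 6 others these values are given only as a description.

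Genes whose levels resembled Slfn4 most were sought among 8109 genes outside the family with a mean of 5 or more CPM, by the Pearson correlation of log2 CPM over the 8 libraries. They were Rab44 (0.97), a large Rab GTPase known from granulocytes and mast cells, Hjurp (0.97), a chaperone of centromeric histone, Gsdmd (0.95), gasdermin D, which forms membrane pores in pyroptosis and in neutrophils, Eif4e (0.94), the cap-binding translation factor, and Gm20559 (0.94). Rab44 had 125, 117, 136 and 101 CPM in ZT13 replicates 1 to 4, against 227, 234, 148 and 151 CPM in ZT1 replicates 1 to 4, which is the same split of the ZT1 libraries into pairs. Its log2 fold change was -0.67 ± 0.17 (SE), smaller than that of Slfn4, and that of Gsdmd -0.20 ± 0.09. As the highest of many correlations over few libraries, these say nothing of shared control. For Slfn1 the same search gave Cystm1 (0.95), Tor3a (0.95), Arhgap31 (0.93), the interferon-induced 2'-5' oligoadenylate synthetase Oas1g (0.91) and Lmbrd1 (0.91), and none of the 5 was among those of Slfn4.

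Type I interferon is the best known inducer of the family, so its other targets were read in the same fit. Of 45 listed interferon-response genes, all 45 were tested, 20 with positive and 25 with negative log2 fold changes. The median was -0.01, beside -0.02 for all genes, and 0 passed. At an unadjusted p under 0.05 stood 4 of the 45 (8.89%, beside 9.20% of all genes), 2 in each direction, which is near the background. Ifit3b had 19.9 ± 3.24 CPM at ZT13 and 11.4 ± 4.15 CPM at ZT1 (log2 fold change 0.81 ± 0.27 SE, edgeR adjusted p = 0.491). Ifitm3, which blocks viral entry and was the most abundant of the list, had 1520 ± 228 CPM at ZT13 and 1053 ± 344 CPM at ZT1 (0.53 ± 0.21, edgeR adjusted p = 0.505). Oas2 had 57.7 ± 10.8 CPM at ZT13 and 82.3 ± 14.6 CPM at ZT1 (-0.51 ± 0.17), and Ifi47, an immunity-related GTPase, 35.2 ± 9.10 CPM at ZT13 and 80.9 ± 57.7 CPM at ZT1 (-1.20 ± 0.48). Bst2 (tetherin) had 21.6 ± 3.49 CPM at ZT13 and 15.2 ± 5.67 CPM at ZT1, Samhd1 780 ± 21.4 CPM at ZT13 and 917 ± 129 CPM at ZT1, and Sp100 451 ± 78.8 CPM at ZT13 and 443 ± 15.9 CPM at ZT1. Canonical targets such as Ifit1 (73.6 ± 9.86 CPM at ZT13 and 72.7 ± 28.7 CPM at ZT1) and Irf7 (176 ± 15.4 CPM at ZT13 and 189 ± 43.7 CPM at ZT1) had overlapping groups.

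The mean log2 CPM of the interferon list was 4.94, 5.66, 5.39 and 5.61 in ZT13 replicates 1 to 4 and 5.19, 5.66, 5.94 and 5.28 in ZT1 replicates 1 to 4. The time points overlapped in this level, and the highest library, ZT1 replicate 3, was one of the 2 ZT1 libraries with low Slfn4. Across the 8 libraries the relation to the list was computed for each of the 6 members. It was closest for Slfn8 (Pearson 0.71, exact permutation p = 0.0536; Spearman 0.60, exact permutation p = 0.132) and Slfn1 (Pearson 0.69, exact permutation p = 0.0578; Spearman 0.71, exact permutation p = 0.0576). Adjusted over the 6 members, the Pearson p was 0.173 for both and the Spearman p 0.302, so that neither relation passed. Without the 2 libraries farthest from the median of the list (ZT13 replicate 1 and ZT1 replicate 3) the Pearson correlation was 0.54 for Slfn8 and 0.39 for Slfn1. For deviations from the mean of each time point it was 0.72 for Slfn8 and 0.74 for Slfn1.

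For Slfn4 the pooled correlation with the list has no clear meaning, because ZT1 replicates 1 and 2 form a cluster of their own. The pooled Pearson value was 0.08 (exact permutation p = 0.842), and -0.31 without the 2 libraries farthest from the list median. Leaving out ZT1 replicates 1 and 2 instead was an unplanned choice made by their Slfn4 values. Among the other 6 libraries the Pearson correlation of Slfn4 with the list was 0.34 (exact permutation p = 0.511). The Spearman correlation was 0.49 (exact permutation p = 0.356). No relation between Slfn4 and the list was detectable in so few libraries.

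**Figure D4:**
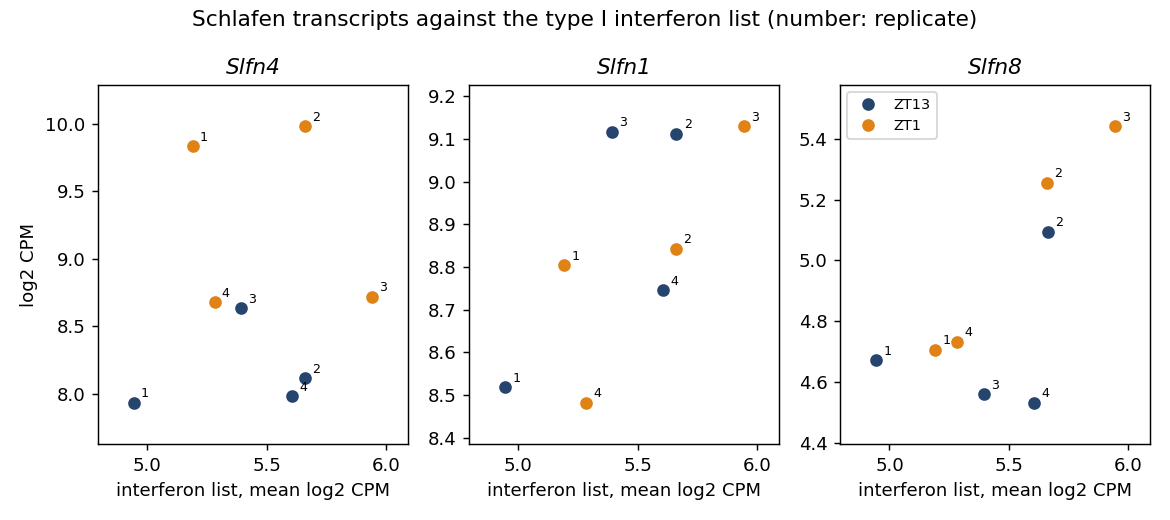
Log2 CPM of Slfn4, Slfn1 and Slfn8 (y axes) against the mean log2 CPM of the 45 interferon-response genes (x axis) in the ZT13 and ZT1 libraries (numbers beside the points are replicates). In the Slfn4 panel ZT1 replicates 1 and 2 stand above the other 6 libraries at list levels of 5.19 and 5.66, inside the range of the other libraries.

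Upstream of these targets, 12 of 15 tested genes for interferon receptors, their kinases and regulatory factors had negative log2 fold changes (52.3% of all genes were negative), with a median of -0.19 beside -0.02 for all genes. Of the 15, 1 (6.67%, beside 9.20% of all genes) stood at an unadjusted p under 0.05, which is no more than the background, and 0 passed. That gene was Ifnar1, a chain of the type I interferon receptor, with 91.8, 85.4, 89.6 and 92.5 CPM in ZT13 replicates 1 to 4 and 106, 113, 109 and 124 CPM in ZT1 replicates 1 to 4. The groups did not overlap, as for 5.66% of all genes (log2 fold change -0.33 ± 0.09 SE, edgeR adjusted p = 0.403). Its partner Ifnar2 had 102 ± 10.4 CPM at ZT13 and 110 ± 8.27 CPM at ZT1. Among the transcription factors, Stat2 had 56.8 ± 4.25 CPM at ZT13 and 49.0 ± 7.85 CPM at ZT1 (0.21 ± 0.14), and Irf9 158 ± 24.6 CPM at ZT13 and 142 ± 10.4 CPM at ZT1 (0.15 ± 0.12). These genes and Irf7 are in both lists.

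The partners of Slfn2 in tRNA biology were measured as well. Of 7 listed genes for tRNA cleavage and the response to stalled translation, all were tested, 3 with positive and 4 with negative values and a median of -0.01, and 0 stood at an unadjusted p under 0.05. Rnh1, the inhibitor of angiogenin, had 205 ± 21.8 CPM at ZT13 and 203 ± 22.3 CPM at ZT1. Ang, angiogenin itself, which cuts tRNA under stress, had 1.72 ± 0.593 CPM at ZT13 and 1.60 ± 0.886 CPM at ZT1, and Atf4, the effector of the integrated stress response, 110 ± 8.16 CPM at ZT13 and 109 ± 12.3 CPM at ZT1.

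The genes around the cluster were read in the same fit to show whether its neighbours moved with Slfn4. Within 150 kb of its ends, 5 genes other than Schlafen genes averaged 5 or more CPM, 2 with negative and 3 with positive log2 fold changes, from -0.63 to 0.20. The nearest of these behind Slfn4 was AI662270 (24.9 ± 2.74 CPM at ZT13 and 23.5 ± 0.835 CPM at ZT1, 0.09 ± 0.13). Ap2b1, the beta subunit of the clathrin adaptor AP-2 at the far edge of the window, had 38.6 ± 4.34 CPM at ZT13 and 59.8 ± 3.60 CPM at ZT1, without overlap (-0.63 ± 0.12, edgeR adjusted p = 0.246). On the other side, Rffl had 81.9 ± 11.9 CPM at ZT13 and 86.3 ± 8.25 CPM at ZT1 (-0.08 ± 0.13) and Lig3 31.1 ± 5.94 CPM at ZT13 and 27.1 ± 2.77 CPM at ZT1 (0.20 ± 0.17).

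**Figure D5:**
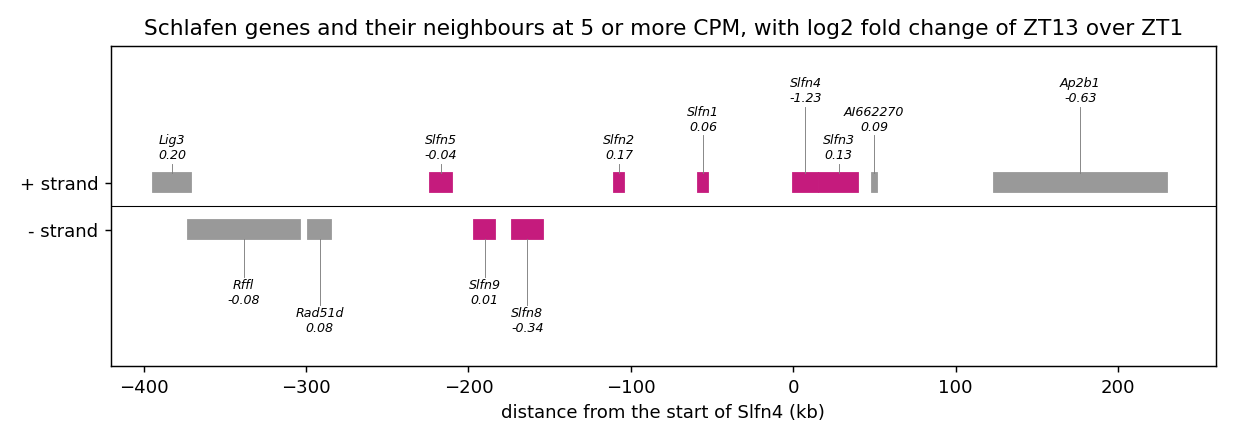
Map of 7 Schlafen genes (Slfn3 included) and of the neighbours averaging 5 or more CPM by distance from the start of Slfn4 in kb (x axis) and by strand, drawn to scale, with the log2 fold change of ZT13 over ZT1 under each name. Slfn4 (-1.23) lies between Slfn1 (0.06) and Slfn3 (0.13), and Ap2b1 (-0.63) at the right edge.

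Among the features of the libraries that differ between the time points, detected genes (fewer at ZT13) and the summed neutrophil markers (higher at ZT13) separated the groups as Slfn4 did, and their part in the Slfn4 difference was not tested. That sum is weighted to the most abundant genes, such as S100a8 (39083 ± 10935 CPM at ZT13 and 25199 ± 5855.5 CPM at ZT1). Of the 12 neutrophil markers, 11 had positive log2 fold changes, with Ltf at only 0.03 ± 0.12. The 1 negative marker was Csf3r (-0.29 ± 0.11). Within ZT1, detected genes were 17100 and 17004 in replicates 1 and 2, where Slfn4 was high, and 17701 and 15760 in replicates 3 and 4. The summed monocyte and macrophage markers, cells in which Slfn4 is known, covered almost the same range at both time points. Ly6c2 leads this sum, so the range of the sum does not show how many of these cells were present. Of the 12 markers, 6 had positive and 6 had negative log2 fold changes. Single markers of that list differed in direction, with Ly6c2 at 1166 ± 90.6 CPM at ZT13 and 835 ± 160 CPM at ZT1 without overlap and Ccr2 at 382 ± 91.2 CPM at ZT13 and 506 ± 50.0 CPM at ZT1 with overlap.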

How the data were processed

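RNA-seq libraries of 8 sorted neutrophil samples were analysed, 4 from ZT13 and 4 from ZT1, grouped by sample titles. The authors deposited raw counts per gene in 1 table of 23369 Ensembl identifiers. Per the submitters' processing notes, FastQC, STAR 2.7.10b, featureCounts, Subread 2.0.3, DESeq2 1.46.0 and GRCm38 were used. The sources used here give neither their settings nor the gene annotation that was counted. Columns were matched to samples by library name. Of the identifiers, 22222 matched GENCODE M21 (GRCm38) with versions ignored, and the 1147 others held 0.125% of the counts.

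The test was edgeR 4.0.16 under R 4.3.3 (filterByExpr with a minimum count of 10 and a minimum total of 15, TMM factors, robust quasi-likelihood F-tests, Benjamini-Hochberg adjustment over 12610 genes, threshold 0.05). Standard errors were taken as |log2 fold change| over the root of F, and the biological coefficient of variation was 0.498. CPM are TMM-scaled and log2 CPM use a prior count of 2. A count of 0 allows up to 3 counts, 0.0442 to 0.0650 CPM, for counting error only. Exon unions gave lengths, and coding identity comes from local alignment of the longest coding sequence per gene (Biopython 1.88). Procedures were tested on simulated data. The members and lists were chosen with earlier results of these data known. Besides the members the text names, of the interferon list, the 6 genes of smallest p and the 3 most abundant, with Ifit1 and Irf7 added after their values were seen, any tested gene of the receptor and tRNA lists, and the leading marker of each cell type, with Ccr2 and the neutrophil examples added in the same way. The genes near the cluster, the minimum of 5 CPM for them and the promoter motifs were chosen after seeing the data. Alternatives covered normalization, filter, test (DESeq2 1.42.0, limma-voom with limma 3.58.1), leaving out each library and replicate blocks. By chi-square per gene, libraries of a group differed by 67.7 to 207, so all 8 were kept as separate samples. Some marker and gene results are not reported here.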

Additional observations from a re-analysis of the deposited data

Results flagged for a closer look

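Among 20 groups of 4 values examined for a library far from the others (the 6 Schlafen genes, Slfn3, 2 ratios and the interferon list at each time point), 2 held one, and chance gives about 1 in 20. Slfn9 in ZT1 replicate 2 had 4.83 CPM (225 counts), where the other ZT1 libraries had 12.1 to 12.8 CPM, and the gap to its nearest neighbour was 0.920 of the group's range. Slfn3 in ZT1 replicate 3 had 2.28 CPM (136 counts), where the other ZT1 libraries had 3.33 to 3.53 CPM (0.837 of the range). The high Slfn4 values of ZT1 replicates 1 and 2 do not meet this criterion, since a pair lies apart and not a single library.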

How the results depend on the processing

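The log2 fold change of Slfn4 kept its sign in 19 alternatives, from -1.42 to -0.99, with -1.31 by library totals, -1.23 by DESeq2 and -1.12 by limma-voom. As a mean log2 ratio to the counts of a paralog in the same library it moved by less than the spread between samples (a choice made after seeing the data). The ZT13 and ZT1 groups of Slfn4 stayed apart with 4 scalings. With each library left out it ranged from -1.42 to -0.99. Over 17 alternatives Slfn2 stayed positive (0.03 to 0.31) and Slfn8 negative (-0.48 to -0.13), while Slfn1, Slfn5 and Slfn9 took both signs (-0.04 to 0.21, -0.26 to 0.22 and -0.23 to 0.11). Past the adjusted threshold stood 0 genes in every alternative except DESeq2, with 118. Left-out libraries gave 0 to 0. The interferon genes at an unadjusted p under 0.05 numbered 4, and 2 to 7 with each library left out (2 without ZT13 replicate 3 or ZT1 replicate 2, 7 without ZT1 replicate 3). The correlation of Slfn4 with the interferon list was 0.08 (exact permutation p = 0.842) and turned negative for deviations from the mean of each time point (-0.11), without ZT13 replicate 1 (-0.27), without ZT1 replicate 2 (-0.11) and without the 2 libraries farthest from the list median (-0.31). With each library left out it ranged from -0.27 to 0.35, so its sign rests on single libraries, and the cause was not tested.

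Replicate numbers are shared by the groups, but same-numbered libraries did not deviate together (correlations from -0.04 to 0.02 by title). With the replicate block from the titles, 0 genes passed, Slfn4 stood at -1.14 and 6 interferon genes at an unadjusted p under 0.05. With the replicate block from the library names (6 libraries) the values were 0, -1.29 and 7.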
